A study of Mus musculus with 36 samples.

Results

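Nr1d1 and Nr1d2, which encode the Rev-erb receptors, and Bhlhe40 and Bhlhe41, which encode Dec1 and Dec2, are 4 of the 46078 genes counted in mouse lung after instillation of graphene oxide. They were chosen by symbol as a set of clock repressors, after earlier results of the same libraries were known, so the values below describe these genes. Counts of those past the threshold of a fit over all genes are given beside the share of all genes past it, and are no independent evidence. Female C57BL/6 mice, a common inbred strain with no engineered allele named in the labels, received 1 intranasal dose of graphene oxide sheets at 50 μg per mouse, dispersed in 5% dextrose, or the dextrose carrier alone (0 μg, group D). The study compared sheets of different lateral dimensions, which the labels mark as 3 materials, US, S and L. Lungs freed of the large airways were sampled at day 1 (mice aged 9 weeks), day 7 (10 weeks) and day 28 (13 weeks). The 12 groups held 3 libraries each (n = 3 throughout, 36 in all), and the labels give 4 to 5 animals per group without tying a library to an animal, so the spread between libraries may be partly technical. Mice lived under a daily 12 h light period that began at 7 am. The hour at which each lung was taken is not given in the sources used here. A difference of hour between groups and a difference of material cannot be told apart in what follows.

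The circadian clock is a loop of transcription in which Arntl (Bmal1) pairs with Clock or Npas2, binds E-box sequences and switches on its own repressors. The Rev-erb receptors bind haem, recruit a corepressor to sites that ROR activators also bind, and hold down Arntl and Npas2. The Dec proteins are basic helix-loop-helix factors that occupy the same E-boxes as the Arntl complex and repress from there. In lung the Rev-erb receptors are also known as brakes on inflammatory genes, and Dec genes respond to hypoxia and other stresses besides the clock.

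Nr1d1 (ENSMUSG00000020889) lies on the minus strand of chromosome 11 at 98767932 to 98775333 in GRCm38, and Nr1d2 (ENSMUSG00000021775) on the minus strand of chromosome 14 at 18204054 to 18239127. Bhlhe40 (ENSMUSG00000030103) lies on the plus strand of chromosome 6 at 108660629 to 108666925, and Bhlhe41 (ENSMUSG00000030256) on the minus strand of the same chromosome at 145858243 to 145865558. Each span covers the whole gene, exons and introns. The sequences around the start sites are shown because E-boxes and the Rev-erb site are the elements through which these genes act and are controlled. For 3 of the 4 genes (not Bhlhe40) they were matched to RefSeq windows of GRCm38.p6, of 300 bases each with 250 before and 50 from the start on, all on the minus strand, at chr6:145865371-145865670 for Bhlhe41, chr11:98775328-98775627 for Nr1d1 and chr14:18239057-18239356 for Nr1d2. Capitals mark an E-box (CACGTG) in Bhlhe41, the letters ACGTG in Nr1d1 and the Rev-erb and ROR core AGGTCA in Nr1d2.
Bhlhe41: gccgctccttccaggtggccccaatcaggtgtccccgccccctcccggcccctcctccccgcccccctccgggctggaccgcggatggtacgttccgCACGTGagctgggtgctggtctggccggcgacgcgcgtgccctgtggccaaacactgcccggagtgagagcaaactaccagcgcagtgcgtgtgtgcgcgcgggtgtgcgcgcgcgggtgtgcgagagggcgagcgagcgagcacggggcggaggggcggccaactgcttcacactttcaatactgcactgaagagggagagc
Nr1d1: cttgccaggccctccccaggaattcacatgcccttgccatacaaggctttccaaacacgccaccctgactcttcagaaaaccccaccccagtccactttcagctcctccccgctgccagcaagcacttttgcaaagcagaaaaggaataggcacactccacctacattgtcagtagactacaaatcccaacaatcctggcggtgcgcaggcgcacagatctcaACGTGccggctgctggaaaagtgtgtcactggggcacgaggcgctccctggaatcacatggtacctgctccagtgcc
Nr1d2: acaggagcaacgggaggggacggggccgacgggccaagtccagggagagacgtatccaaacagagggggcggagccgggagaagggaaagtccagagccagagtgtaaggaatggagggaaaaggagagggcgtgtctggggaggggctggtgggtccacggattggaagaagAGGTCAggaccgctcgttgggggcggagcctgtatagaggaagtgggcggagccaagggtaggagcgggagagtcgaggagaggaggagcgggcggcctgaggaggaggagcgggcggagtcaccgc
Both strands were searched for 4 motifs. The E-box CACGTG was found in Bhlhe41, from base 98 of the window, and occurred in 7.15% of the 32817 windows of this length. The core AGGTCA was found in Nr1d2, at bases 174 to 179, and in 16.3% of all windows. The letters ACGTG are 1 form of the hypoxia response core and are also contained in CACGTG. They were found in Nr1d1 at bases 224 to 228 and in Bhlhe41 within its E-box, and in 19.6% of all windows. The other form of that core, GCGTG, was not searched for. The D-box letters TTATGTAA or TTACGTAA were in none of the 3 windows and in 1.05% of all. A match is a description of the letters and not evidence of binding.

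Depth was 16154696 to 23808264 counts for 35 of the libraries, while S day 7 replicate 2 held 80566751. All 4 genes passed the filter on low counts, among 16903 genes tested, with at least 146 counts in any library. Levels are given as CPM, in which each count is divided by its library's TMM-scaled total and put on 1 common scale, without regard to gene length. Lung identity was checked on Sftpc, the surfactant gene of alveolar type 2 cells, at 10664 to 28407 CPM, and Ager of type 1 cells, at 2037 to 3793 CPM, in all 36 libraries. The tissue is a mixture of cells, so fewer cells of a type and less RNA per cell cannot be told apart. Within S day 1, replicate 1 stood apart in Nr1d1, and the S day 1 values are given with and without it.

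Rev-erb transcripts in the control lungs differed between days. Nr1d1 stood at 131.3, 84.3 and 129.3 CPM in the 3 D libraries of day 1, at 145, 110.1 and 67.0 CPM at day 7 and at 14.6, 16.9 and 12.3 CPM at day 28. The 3 D libraries of day 28 were the 3 lowest of the 36, below all 6 earlier D libraries. The fitted log2 difference of day 28 from day 1 was -2.98 ± 0.39 (SE, here and below for log2 values), a 7.88-fold lower level. Nr1d2, the paralogue that shares its binding site, followed with 127.97, 82.8 and 111.4 CPM at day 1, 89.9, 117.3 and 58.0 CPM at day 7 and 27.5, 27.7 and 23.9 CPM at day 28. Its 3 D libraries of day 28 also lay below every other library, with a log2 difference from day 1 of -2.03 ± 0.22. The Dec genes showed no such step in D. Bhlhe40 had means of 53.7 ± 7.16, 52.1 ± 6.86 and 47.5 ± 6.35 CPM (SD) at days 1, 7 and 28, and the libraries of the 3 days overlapped. Bhlhe41 had means of 9.81 ± 0.517, 10.3 ± 1.53 and 8.84 ± 0.882 CPM in D, again with overlapping libraries. Between D at day 28 and day 1, 2 of the 4 genes passed the threshold as lower (a Benjamini-Hochberg adjusted p of 0.05 over all genes tested, edgeR's quasi-likelihood test), where 0.0237% of all tested genes were lower. Between day 28 and day 7 the same 2 Rev-erb genes passed as lower, beside 6.74% of all genes, and between days 7 and 1 the count was 0 of 4 beside 0.0%. Because each exposed group is set against D of its own day, the low Rev-erb level of D at day 28 enters every comparison of that day.

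**Figure D1:**
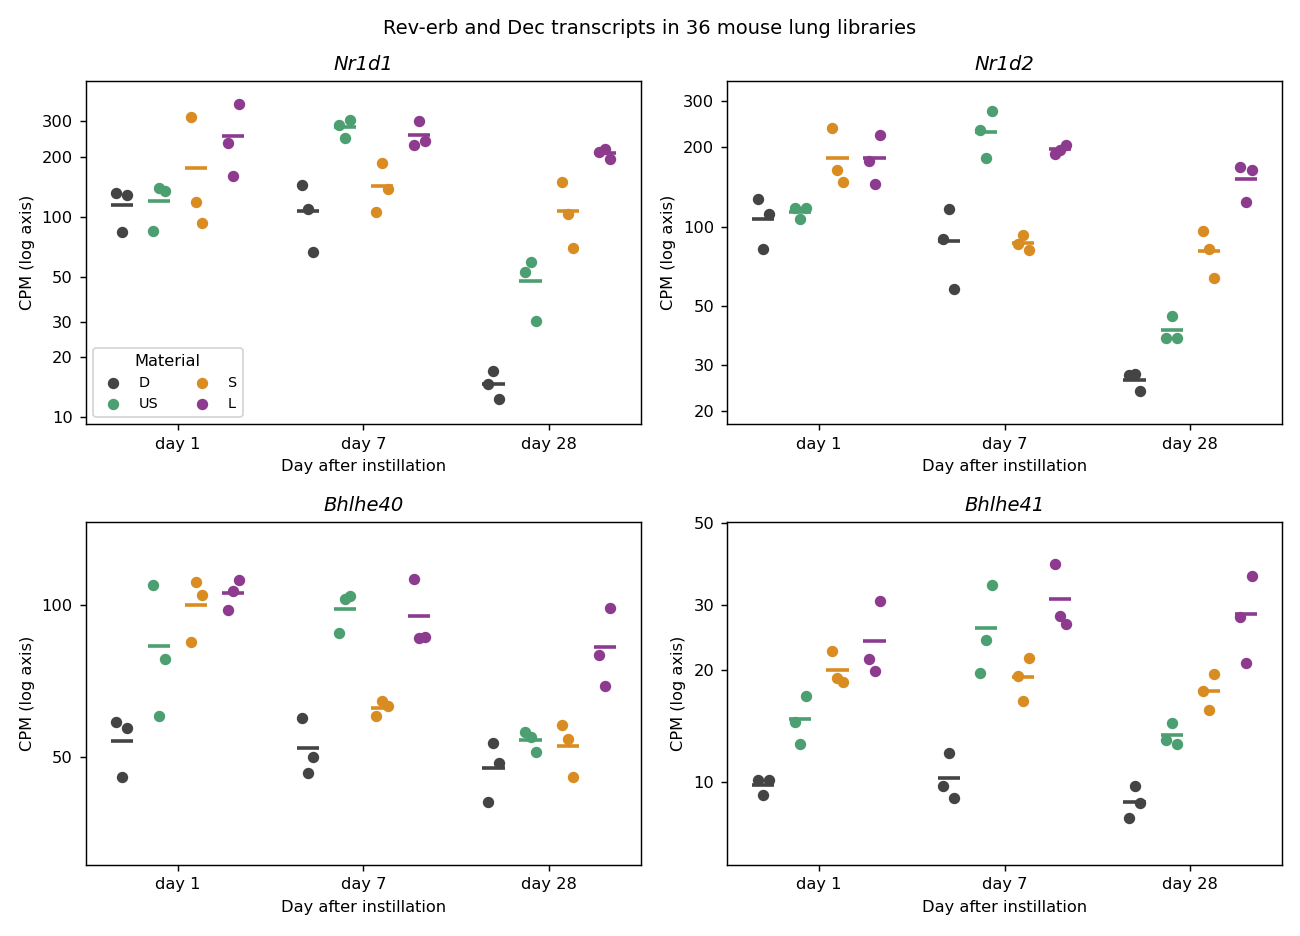
Level of each gene in each of the 36 libraries, in CPM on a logarithmic axis, by day after instillation and material (points, 3 libraries per group; bars, group means). Nr1d1 and Nr1d2 were lowest in the 3 D libraries of day 28, and every exposed library lay above every D library for Bhlhe41.

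At day 28 the Rev-erb genes stood in the order D, US, S, L. Nr1d1 was at 53.0, 59.7 and 30.1 CPM in US, at 149.6, 103.1 and 70.1 CPM in S and at 211, 218 and 195 CPM in L, beside 12.3 to 16.9 CPM in D. No library of 1 group reached into the next, and the log2 difference from D was 1.71 ± 0.38 for US, 2.88 ± 0.39 for S and 3.83 ± 0.40 for L. The last corresponds to a 14.3-fold higher level, the widest difference from D of any of the 4 genes in any of the 9 comparisons. Nr1d2 was at 38.0, 45.9 and 37.8 CPM in US, at 96.1, 82.7 and 64.2 CPM in S and at 169, 123.8 and 164 CPM in L, beside 23.9 to 27.7 CPM in D. Its 4 groups were likewise free of overlap, and the log2 differences from D were 0.62 ± 0.21, 1.62 ± 0.21 and 2.53 ± 0.22. Bhlhe41 kept the same order with 13.0, 14.4 and 12.7 CPM in US, 17.6, 15.7 and 19.6 CPM in S and 28.0, 20.99 and 36.03 CPM in L, above 7.98 to 9.74 CPM in D. Its log2 differences from D were 0.60 ± 0.20, 0.99 ± 0.20 and 1.68 ± 0.20. Bhlhe40 departed from the order: US (56.1, 54.6 and 51.2 CPM) and S (57.7, 54.2 and 45.5 CPM) overlapped with D (40.6, 53.2 and 48.6 CPM), and L alone stood clear at 79.7, 69.0 and 99.0 CPM, with a log2 difference of 0.80 ± 0.16. The strict rising order D, US, S, L with no overlap was noticed after the values were seen. It held for 3 of these 4 genes and for 10 of all 16903 tested genes (0.0592%), among them the clock output gene Dbp. The falling order held for 0 of these 4 genes and for 8 of all tested genes, among them the clock repressor Cry1. At days 1 and 7 each order held for 0 genes (0.0%).

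In US at day 28, 0 of the 4 genes passed the threshold as higher than D, beside 0.0% of all genes, although 3 of them did not overlap with D (7.26% of all genes). With DESeq2, or with no filter on low counts, Nr1d1 passed there, at log2 1.70 and 1.71. In S, 3 of 4 passed as higher, beside 0.0887%, and in L 4 of 4, beside 1.26%. Free of overlap with D were 3 of 4 in S (11.1% of all genes) and 4 of 4 in L (14.6%). In none of the 9 comparisons with D did any of the 4 genes pass as lower. The calls of Nr1d1 and Nr1d2 in S and L at day 28 held when each library of the groups compared was left out in turn. Bhlhe41 in S lost its call without any 1 of the D libraries (0.93, 1.07 and 0.99) and without S replicate 1 or 3 (1.00 and 0.92), and also by limma on log2(TPM + 1), at 0.83. Bhlhe40 in L lost it without D replicate 1 (0.70) or L replicate 3 (0.66). The summed level of 10 alveolar macrophage markers, none at 0 in any library, was 1393 to 1464 CPM in D, 1845 to 2118 in US, 2005 to 2378 in S and 1188 to 1823 in L at day 28. L overlapped with D in this sum, and US and S lay above D. Chil3, at 677 to 2531 CPM over the 36 libraries, was the largest part of the sum. The median log2 difference of the 10 genes from D was 0.19 in US, 0.40 in S and -0.01 in L. Other marker sums stood apart from D in L, with B cell at 564.0 to 665.3 against 337.6 to 506.9 CPM, alveolar epithelium at 30500 to 33170 against 28580 to 30220, smooth muscle at 383.5 to 403.0 against 437.7 to 483.1 and fat at 1.92 to 2.67 against 2.72 to 6.94. The median log2 difference from D in L was 0.63 for B cell, 0.10 for alveolar epithelial and -0.28 for smooth muscle genes. For the 5 tested fat genes the median was 0.15, higher than D although the fat sum was lower. In S, smooth muscle at 409.0 to 425.3 and cardiomyocyte markers at 39.4 to 45.3 against 52.7 to 113.2 CPM lay below D. The part of these cell types in the results of day 28 was not tested.

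**Figure D2:**
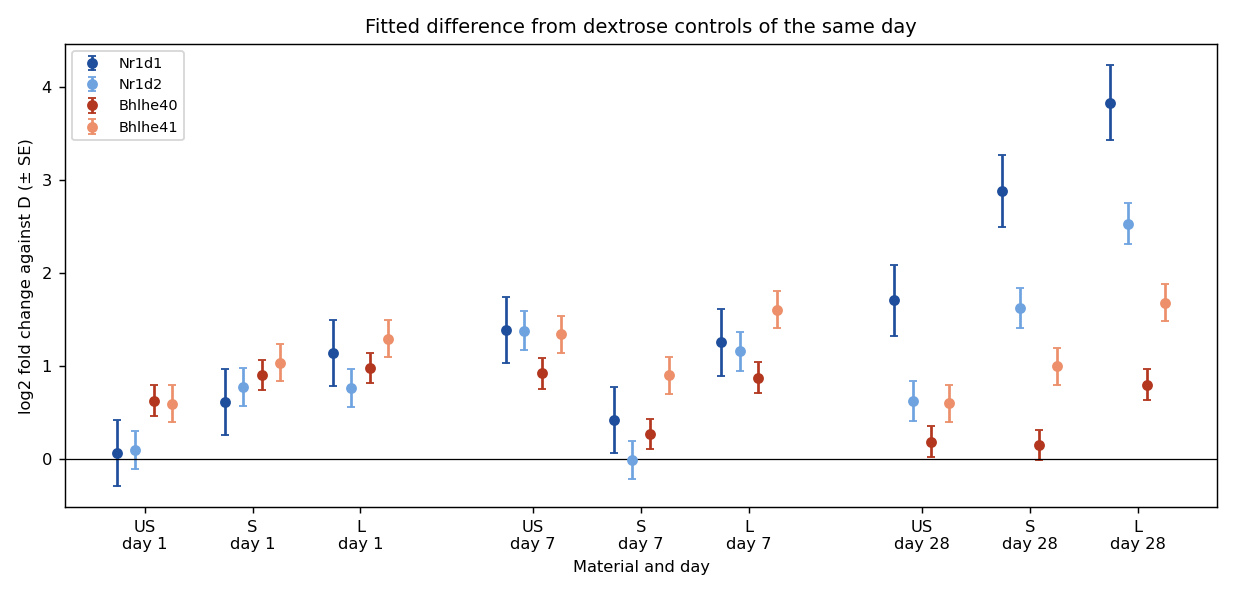
Fitted log2 fold change of each gene in each exposed group against D of the same day (points, edgeR estimate; bars, ± SE). Nr1d1 had the widest range, from 0.06 in US at day 1 to 3.83 in L at day 28, and Bhlhe41 stayed between 0.59 and 1.68.

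At day 7 the order of the materials was another. US and L were high and S lay near D for 3 of the 4 genes. Nr1d1 was at 288, 248 and 306 CPM in US and 228, 301 and 239.7 CPM in L, all above the highest D library of day 7 at 145 CPM, whereas S at 105.4, 186 and 138 CPM overlapped with D. The log2 difference from D was 1.39 ± 0.36 in US, 1.25 ± 0.36 in L and 0.42 ± 0.35 in S. Nr1d2 was at 233, 182 and 274 CPM in US and 189.5, 196 and 205 CPM in L, above D at 58.0 to 117.3 CPM. In S it stood at 86.4, 92.9 and 82.0 CPM, inside the D range, with a log2 difference of -0.02 ± 0.20. Bhlhe40 behaved like the Rev-erb genes, at 88.2, 103.03 and 104.2 CPM in US and 112.85, 86.3 and 86.6 CPM in L, against 46.5 to 59.7 CPM in D. S was at 60.2, 64.6 and 63.1 CPM, just above the highest D library, and its log2 difference was 0.27 ± 0.16. Bhlhe41 was the exception in S, at 19.3, 16.6 and 21.6 CPM against 9.04 to 12.0 CPM in D, a log2 difference of 0.90 ± 0.20. In US it stood at 19.7, 24.2 and 33.96 CPM (1.34 ± 0.20) and in L at 38.7, 28.1 and 26.6 CPM (1.60 ± 0.20), its highest mean of the 12 groups at 31.2 ± 6.61 CPM.

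Against D at day 7, 4 of 4 genes passed as higher in US (0.905% of all genes), 1 of 4 in S (0.408%) and 3 of 4 in L (0.0887%). All libraries lay above D for 4 of 4 genes in US (7.9% of all genes), 2 of 4 in S (8.51%) and 4 of 4 in L (4.56%). The call of Nr1d1 in US was lost without any 1 of the 3 D libraries or without US replicate 1 or 3, at log2 1.13 to 1.66, and all 4 calls in US were lost in a fit of only the 2 groups compared. In that fit 1 of 4 genes, Bhlhe41, kept its call in L. Without D replicate 3, Nr1d2 in L lost its call (0.93), and Bhlhe40 in L lost it without D replicate 2 (0.81), D replicate 3 (0.85) or L replicate 1 (0.74). Bhlhe41 in S lost its call without any 1 of the 6 libraries, at log2 0.81 to 1.03. Thinning the deepest library, S day 7 replicate 2, to the median depth kept that call. The 7 fat markers summed to 9.84 to 30.3 CPM in D at day 7, against 1.77 to 6.00 in US, 2.78 to 15.4 in S and 4.27 to 14.2 in L, with Adipoq, the defining fat hormone, at 0 in 5 of the 36 libraries and Lep at 0 in 25. Cardiomyocyte markers were at 82.9 to 125.2 CPM in US against 131.2 to 174.6 in D, and endothelial markers at 2509 to 2853 in S against 2860 to 3363 in D. Their part in the results of day 7 was not tested.

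At day 1 the Dec genes passed the threshold in S and L, and the Rev-erb genes did not. Bhlhe40 was at 84.6, 111.1 and 104.8 CPM in S and at 97.8 to 112.35 CPM in the 3 libraries of L, above D at 58.6, 45.5 and 57.0 CPM, with log2 differences of 0.90 ± 0.16 and 0.98 ± 0.16. In US it was at 110.01, 60.3 and 78.2 CPM, also above D throughout, at 0.63 ± 0.16. Bhlhe41 was at 22.5, 19.0 and 18.6 CPM in S and 21.5, 19.9 and 30.7 CPM in L, against 10.1, 9.22 and 10.1 CPM in D, differences of 1.03 ± 0.20 and 1.29 ± 0.20. US lay between, at 14.6, 12.7 and 17.1 CPM and 0.59 ± 0.20. The Rev-erb genes were more scattered. Nr1d1 was at 316, 118.4 and 93.4 CPM in S, where replicate 1 stood far above the other two, which overlapped with the D range. Its log2 difference from D was 0.61 ± 0.36 with that library and -0.12 without it. Without the same library, the differences of S were 0.54 for Nr1d2, 1.01 for Bhlhe40 and 0.94 for Bhlhe41, and the Dec calls held. In L it was at 233, 159.9 and 367 CPM, above all D libraries, at 1.14 ± 0.36, and in US at 84.7, 139 and 135.5 CPM it overlapped with D, at 0.06 ± 0.35. Nr1d2 was at 236, 164 and 148 CPM in S and 178, 146 and 224 CPM in L, above D at 82.8 to 127.97 CPM, both at 0.77 ± 0.21, and at 117.7, 106.8 and 118.1 CPM in US it lay inside the D range.

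At this day 2 of 4 genes, the Dec pair, passed as higher in S (0.0355% of all genes) and in L (0.0177%), and 0 of 4 in US (0.0651%). Free of overlap with D were 3 of 4 genes in S (17.2% of all genes), 4 of 4 in L (4.73%) and 2 of 4 in US (8.71%). Every one of these calls was lost without any 1 of the D libraries. Both calls in S were also lost without S replicate 2 or 3, at log2 0.82 to 1.09, and both in L without L replicate 3, at 0.91 and 1.06, or in a fit of only the groups compared. Bhlhe40 in US passed without US replicate 2 (0.81), with DESeq2 and with no filter (both 0.63). The alveolar macrophage marker sum was 1638 to 1858 CPM in D, 1850 to 3173 in US, 1799 to 2345 in S and 1938 to 3069 in L at day 1, and the neutrophil sum 145.6 to 200.7 CPM in D, 200.9 to 699.9 in US, 110.1 to 212.8 in S and 192.6 to 209.4 in L. The median log2 difference of the 10 macrophage genes from D was 0.09 in US, -0.03 in S and 0.11 in L. For the 8 neutrophil genes it was 1.23, -0.19 and 0.39 in the same order. For the 8 T and NK cell genes it was -0.63, -0.60 and -0.27. T and NK cell markers were lower than in D (88.96 to 91.8 CPM) in US, at 25.96 to 86.0, and in S, at 45.8 to 82.6, and the alveolar epithelial sum was 25060 to 29740 in S against 29970 to 33400 in D. Sftpc, with a median of 18287 CPM over the 36 libraries, was the largest part of the epithelial sum. The 8 epithelial genes lay on both sides of D in S, with a median log2 difference of -0.15. Their part in the results of day 1 was not tested.

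Over the 3 days Bhlhe41 separated exposed from control lungs more fully than the other 3 genes. All 27 exposed libraries, from 12.7 CPM upwards, lay above all 9 D libraries, the highest of which was at 12.0 CPM. In the deposited TPM the margin was 3.88 against 3.20, again with 27 of 27 above. The gap is narrow and was noticed after the values were seen. Bhlhe41 was the single gene of 16903 (0.00592%) with every exposed library above every D library, and 0 genes had every exposed library below. Of the others, Bhlhe40 had 21 of 27 exposed libraries above the highest D library, Nr1d1 15 and Nr1d2 14.

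Comparing materials with each other avoids the D groups. At day 28 the log2 difference of L from US was 2.13 ± 0.37 for Nr1d1, 1.91 ± 0.21 for Nr1d2 and 1.08 ± 0.19 for Bhlhe41, and these 3 of 4 genes passed as higher, beside 0.349% of all genes. Bhlhe40 was at 0.61 ± 0.16 and did not pass. Without L replicate 3 Bhlhe41 lost its call, at 0.89. L also lay above S in all 4 genes with no overlap (5.06% of all genes; log2 0.65 to 0.95), and 0 of 4 passed, beside 0.0651%. Without L replicate 2, 3 of the 4 genes passed in this comparison, with Bhlhe40 at 0.78, Bhlhe41 at 0.87 and Nr1d2 at 1.05. At day 7 the log2 difference of S from US was -1.40 ± 0.21 for Nr1d2, lower as 1 of 4 genes beside 0.0769%, and that of L from S was 1.17 ± 0.21, higher as again 1 of 4 beside 0.0769%. The latter call was lost without S replicate 3 (1.14). For Nr1d1, Bhlhe40 and Bhlhe41 the differences at day 7 were -0.97, -0.65 and -0.44 for S from US. Those for L from S were 0.84, 0.60 and 0.71. L and US at day 7 overlapped in all 4 genes, and 0 of 4 passed beside 0.00592%. At day 1, 0 of 4 genes passed in any of the 3 comparisons between materials, beside 0.00592% of all genes as higher in S than US and 0.0% in the others. For Nr1d1, Nr1d2, Bhlhe40 and Bhlhe41 in turn, the log2 differences there were 1.08, 0.68, 0.35 and 0.70 for L from US. They were 0.56, 0.68, 0.27 and 0.44 for S from US and 0.53, -0.0018, 0.08 and 0.26 for L from S. S and US at day 28 gave 0 of 4 beside 0.0%, although S was higher with no overlap in Nr1d1, Nr1d2 and Bhlhe41 (7.18% of all genes).

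In 2 of the 9 comparisons of an effect between days, Rev-erb genes passed the threshold. The effect of L on Nr1d1 was larger at day 28 than at day 1 by log2 2.70 ± 0.52 and that on Nr1d2 by 1.77 ± 0.29, and 2 of the 4 genes passed this interaction as higher, beside 0.112% of all genes. The effect of S on Nr1d2 was larger at day 28 than at day 7 by 1.64 ± 0.29 (1 of 4, beside 0.00592%). In the other 7 comparisons 0 of 4 genes passed, among them L at day 28 against day 7 (2.58 ± 0.52 for Nr1d1 and 1.38 ± 0.29 for Nr1d2), S at day 28 against day 1 (2.27 ± 0.52 and 0.85 ± 0.29) and L at day 7 against day 1 (0.12 ± 0.50 and 0.39 ± 0.29). The effect of US on Nr1d1, against D of the same day, was larger at day 7 than at day 1 by 1.33 ± 0.50. At day 28 it was larger than at day 1 by 1.65 ± 0.52, while the US mean itself was 119.7 CPM at day 1 and 47.6 CPM at day 28. For the Dec genes the change in the effect of L from day 1 to day 28 was -0.18 ± 0.23 for Bhlhe40 and 0.39 ± 0.28 for Bhlhe41. The L libraries of days 1 and 28 overlapped in Nr1d1, 159.9 to 367 CPM at day 1 and 195 to 218 CPM at day 28, whereas those of D did not, at 84.3 to 131.3 CPM and 12.3 to 16.9 CPM.

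The genes also differed in how far their levels ranged. Nr1d1 group means spanned 19.2-fold, from 14.6 ± 2.30 CPM in D at day 28 to 280.6 ± 29.8 CPM in US at day 7, and Nr1d2 8.71-fold between the same groups, from 26.4 ± 2.15 to 229.5 ± 46.4 CPM. Bhlhe41 spanned 3.53-fold, from 8.84 ± 0.882 in D at day 28 to 31.2 ± 6.61 CPM in L at day 7, and Bhlhe40 2.23-fold, from 47.5 ± 6.35 CPM in D at day 28 to 105.7 ± 7.39 CPM in L at day 1. When the 12 group means of a gene were ranked, most neighbours overlapped in their libraries. For Nr1d1 the separate steps were D day 28 to US day 28 and US day 28 to D day 7, and the other 9 of 11 neighbouring pairs overlapped. For Nr1d2 3 of 11 pairs were apart, for Bhlhe40 2 and for Bhlhe41 1, the step from D day 7, the highest D group, to US day 28, the lowest exposed group. D at day 28 was the lowest group of the 12 for each of the 4 genes.

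Per length, on the deposited TPM scale, Bhlhe41 was the least abundant of the 4 in all 36 libraries. The order Nr1d1, Nr1d2, Bhlhe40, Bhlhe41 held in 20 of them, and Bhlhe40 exceeded both Rev-erb genes in 6, including all 3 D libraries of day 28. With CPM per kilobase of merged exons the first order held in 29 of 36, and with CPM per kilobase of the whole gene span in 0, since the long introns of Nr1d2 lower it there. The TPM ratio of Nr1d1 to Nr1d2 was 0.93 ± 0.12 in D at day 28 and had means of 1.49 to 2.80 in the other 11 groups, and Nr1d1 lay below Nr1d2 on this scale in 2 of the 3 D libraries of day 28. The TPM ratio of Bhlhe40 to Bhlhe41 had means of 11.8, 11.2 and 11.3 in D at days 1, 7 and 28, and of 5.60 to 10.0 in the 9 exposed groups, lowest in L at day 28 at 5.60 ± 0.956. Nr1d1 shares 263 exon bases, 8.55% of its exon length, with Thra on the opposite strand, and reads there cannot be apportioned without the strand setting of the counting. Thra group means ranged 1.41-fold, from 105.8 to 149.1 CPM. Bhlhe40 overlaps the antisense gene 0610040F04Rik and Bhlhe41 the gene model Gm43909 on the opposite strand, with the same limit.

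Other clock genes differed in many of the same comparisons, which share their D libraries with those above. Of 16 listed genes 15 were tested (Rorb was filtered out). In L at day 28, 4 rose and 6 fell, and the list median was log2 -0.32 beside 0.0003 over all genes. Of all genes, 1.26% were higher and 0.893% lower there. The PAR bZIP output factors rose: Dbp by 4.13 ± 0.59 (adjusted p = 9.34e-05), Tef by 0.92 ± 0.18 and Hlf by 0.70 ± 0.19, and Per3, a partner of the cryptochromes, by 1.29 ± 0.22. The genes of the activating arm fell, with log2 differences of -1.66 ± 0.27 for Arntl, -1.89 ± 0.29 for Npas2 and -0.61 ± 0.17 for Clock. So did Nfil3, which opposes the output factors (-1.31 ± 0.34), and the repressor Cry1 (-1.55 ± 0.19, adjusted p = 1.6e-05). Dbp was at 60.0, 47.4 and 76.9 CPM in L against 3.88, 3.02 and 3.61 CPM in D. In S at day 28, 0 rose and 2 fell, among them Cry1 (-1.32 ± 0.19), and in US 0 of 15 passed, where 0.148% of all genes were lower in S and 0.0237% in US. At day 7, 6 rose and 2 fell in US, 5 rose and 2 fell in L and 0 of 15 passed in S. The shares of all genes higher and lower were 0.905% and 1.18% in US, 0.0887% and 0.0651% in L and 0.408% and 0.0414% in S. Arntl fell in US (-1.81 ± 0.28) and L (-2.17 ± 0.29), as did Npas2 (-2.78 ± 0.32 and -2.60 ± 0.32), while Per2, the light-responsive period gene, rose by 2.15 ± 0.34 and 1.71 ± 0.34. At day 1, Tef (0.92 ± 0.18) and Hlf (1.06 ± 0.18) rose and Npas2 fell (-1.65 ± 0.30) in S, and Npas2 fell in L (-1.63 ± 0.30), beside 0.0118% of all genes lower in S and 0.00592% in L. The count of day 1 in S was 5 of 15 without S replicate 1 and 0 without S replicate 2 or any 1 of the D libraries, and that in L was 0 without L replicate 1 or 3 or any 1 of the D libraries. At day 28 the count in S was 1 without D replicate 1 or 3 or any 1 of the S libraries. With any 1 library of the groups compared left out, the count in L was 7 to 8 at day 28 and 5 to 6 at day 7. In US at day 7 it was then 6 to 10. In D itself, 2 of 15 passed as higher at day 28 than at day 1 and 0 as lower. The shares of all genes were 0.0532% and 0.0237%. Against day 7, 5 were higher and 2 lower, beside 8.91% and 6.74%. Cry1 rose by 1.33 ± 0.19 from day 1 to day 28, the time over which Nr1d1 and Nr1d2 went down. The D mean of Arntl was 35.6 CPM at day 1 and 60.6 CPM at day 28, that of Npas2 10.2 and 22.9 CPM. For Dbp the D mean of day 1 was 22.7 CPM, against 3.02 to 3.88 CPM in the D libraries of day 28. These D levels enter every comparison of day 28 with D.

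**Figure D3:**
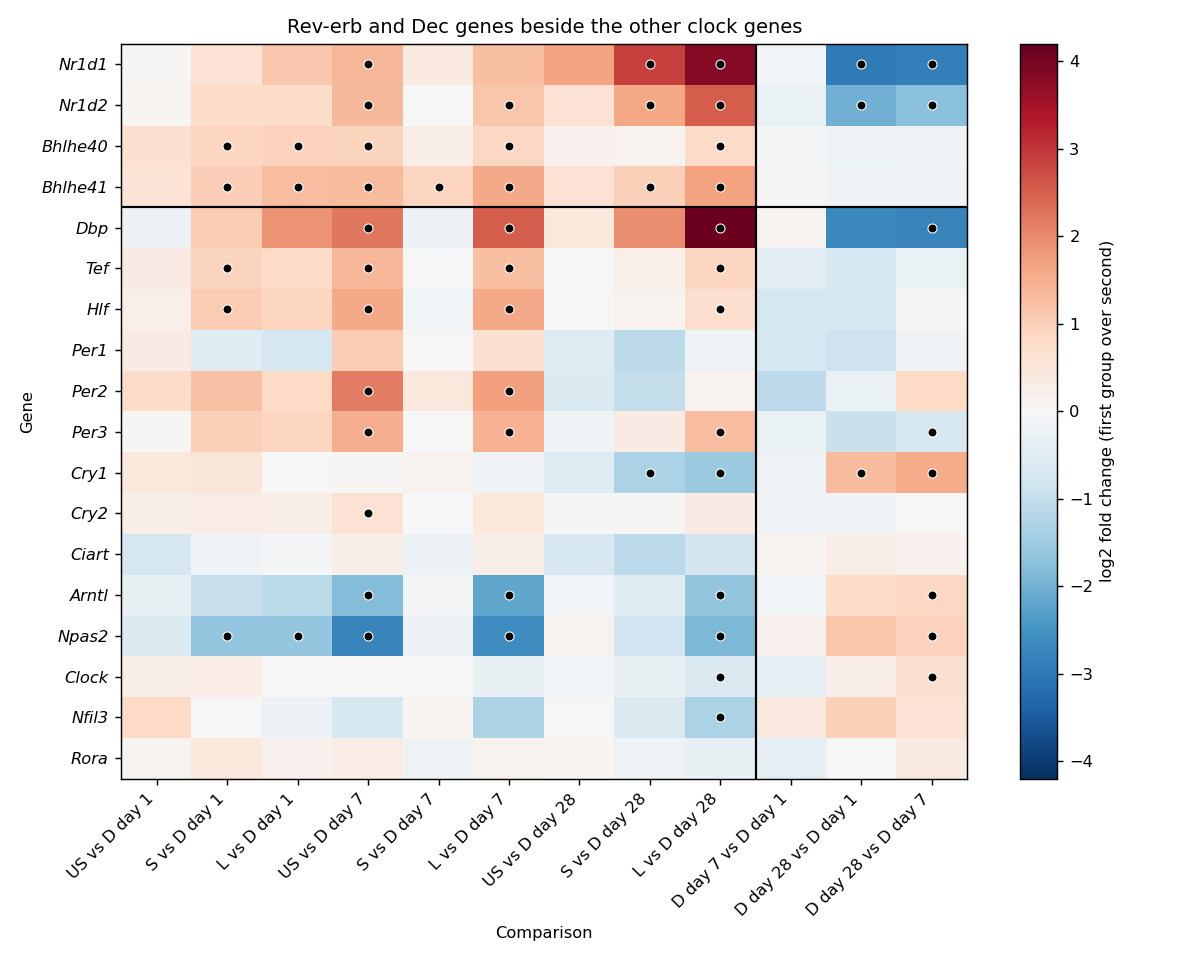
Fitted log2 fold change (colour; red, first group higher) of the 4 repressors, above the line, and 14 other clock genes in the 9 comparisons with D and the 3 comparisons of D over time; dots mark an adjusted p under 0.05. The Rev-erb rows share their direction with Dbp and oppose Arntl and Npas2 in US and L at day 7 and in L at day 28.

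Across the 36 libraries, which share materials and days, likeness was measured by Pearson's r of log2 CPM over 14716 genes averaging at least 1 CPM and is a description. Nr1d1 was most like Nr1d2 (r = 0.94, Spearman's rho 0.90), then Dbp (0.91, rho 0.93), Tex11 (0.84), Zfp346 (0.82) and Per3 (0.77). It was most opposed to Dtx4 (-0.85), Cry1 (-0.84) and Snx18 (-0.82). Nr1d2 was most like Nr1d1, Tex11 (0.94), Dbp (0.93), Per3 (0.91) and Tef (0.88), and most opposed to Npas2 (-0.92, rho -0.96), Arntl (-0.89) and 5430416O09Rik (-0.87). Bhlhe40 was most like Tspan4, a tetraspanin (0.91), Tef (0.90), Per3 (0.85), Cipc, a Clock-binding repressor (0.84), and Hlf (0.83), and most opposed to Spon2 (-0.89), Npas2 (-0.84) and Avpr1a (-0.84). Bhlhe41 had looser likeness, to Aldoc (0.80), Tex11 (0.77), Dbp (0.76), Bhlhe40 (0.76) and Nr1d2 (0.74), and was most opposed to Arntl (-0.80), Rasl11a (-0.79) and Ccnjl (-0.79).

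Once group means were taken away, the correlations between the 4 genes were lower. Nr1d1 and Nr1d2 were at r = 0.72, Nr1d2 and Bhlhe41 at 0.49, Bhlhe40 and Bhlhe41 at 0.39, Nr1d1 and Bhlhe41 at 0.24 and Nr1d2 and Bhlhe40 at 0.17. Nr1d1 and Bhlhe40 were at -0.07, against 0.66 over the levels. Bhlhe40 deviated most like Hmox1, the haem oxygenase induced by oxidative stress (0.84), and Rnh1 (0.79). For Bhlhe41 the nearest were Fpr1 (0.70), a receptor of phagocytes, Abcg1 (0.68), a lipid exporter, and Plet1 (0.67). Next came Pparg (0.67), a regulator of alveolar macrophages, and Atp6v1c1 (0.67). Nr1d1 deviated most like Myh13 (0.80) and Zfp346 (0.79). Against Arntl, the correlation over levels was -0.81 for Nr1d1, -0.89 for Nr1d2, -0.81 for Bhlhe40 and -0.80 for Bhlhe41. Over deviations from group means it was -0.57, -0.72, -0.33 and -0.60. Within days 1, 7 and 28, of 12 libraries each, it was -0.79, -0.87 and -0.83 for Nr1d1 and -0.93, -0.94 and -0.92 for Nr1d2. Without the 2 libraries farthest from the median, it was -0.82, -0.89, -0.78 and -0.75 for the 4 genes in the same order. For Bhlhe40 the values within days were -0.70, -0.90 and -0.92, and for Bhlhe41 -0.87, -0.82 and -0.90.

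**Figure D4:**
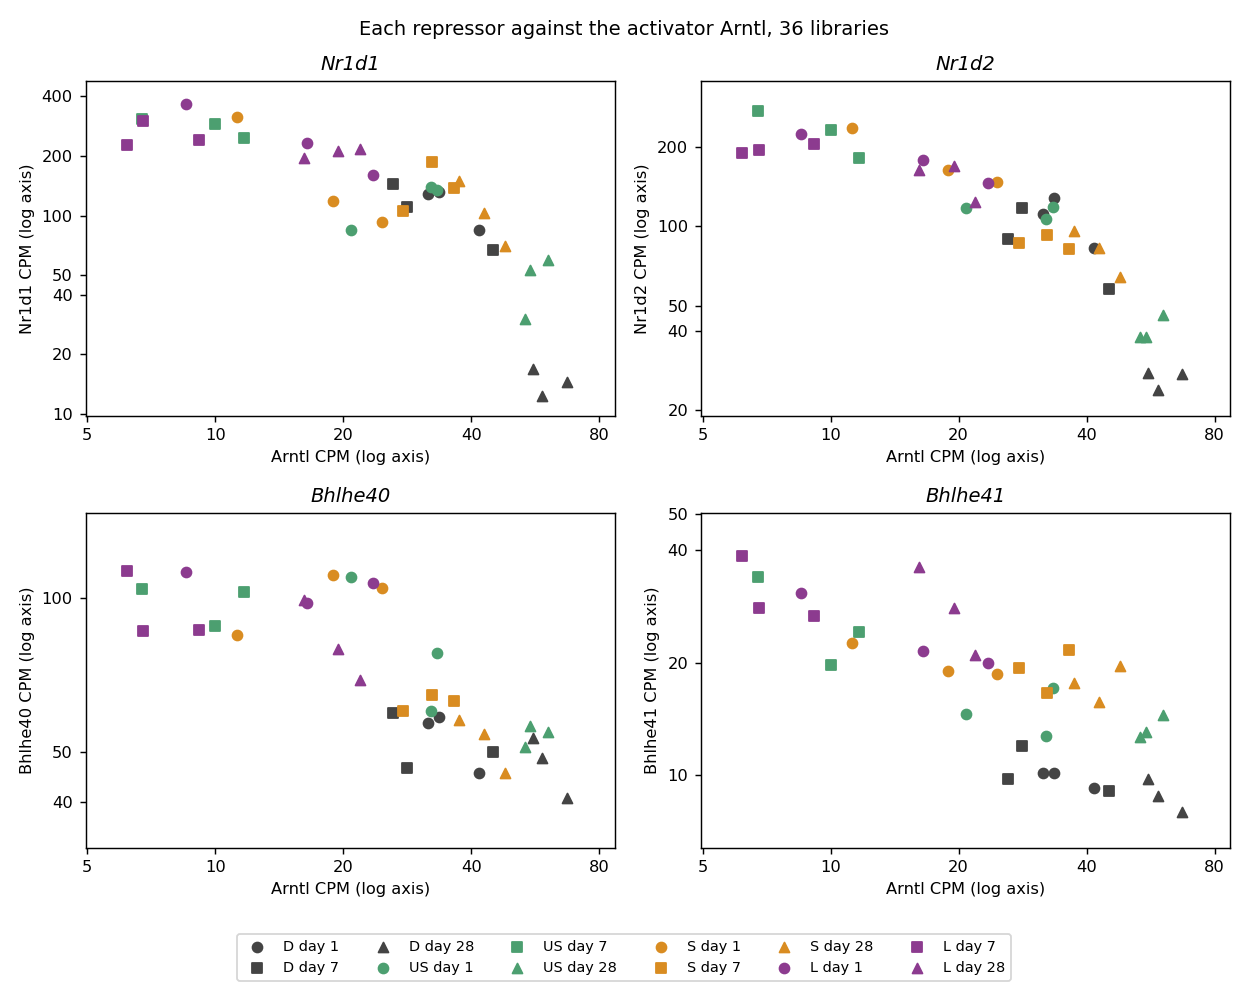
CPM of each repressor against CPM of Arntl in the 36 libraries, both on logarithmic axes (colour, material; shape, day). Libraries low in Arntl, such as L and US at day 7, were high in each repressor, and for Bhlhe41 the 9 D libraries formed a lower band of their own, at 7.98 to 12.0 CPM.

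Genes outside the clock that bear on these repressors gave few calls. Of 8 genes for Rev-erb partners and haem metabolism, 8 tested targets of Rev-erb outside the clock and 10 hypoxia-induced genes, 0 passed in any of the 9 comparisons with D. Of 10 glucocorticoid-induced genes, Cebpd was lower in US at day 7 (log2 -1.46 ± 0.39), beside 1.18% of all genes. Tsc22d3 was lower in S at day 28 (-1.14 ± 0.25), beside 0.148%. Of 10 immediate early genes Atf3 was higher in S at day 7 (1.34 ± 0.29), beside 0.408%. Among the marker lists, 1 of 10 alveolar macrophage genes, Atp6v0d2, was higher in L at day 28 (1.33 ± 0.26), beside 1.26% of all genes. The median of that list was log2 -0.01, with genes on both sides of D. In US at day 7, where 0.905% of all genes were higher and 1.18% lower, 1 of 6 airway genes rose (Dnah9, 0.78 ± 0.16) and 1 fell (Bpifa1, -5.45). In the same comparison 2 of 6 endothelial genes (Cldn5, -1.03, and Egfl7, -1.001), 1 of 5 tested fat genes (Adig, -1.51) and 1 of 5 smooth muscle genes (Cnn1, -0.81) fell. In neutrophil, T and NK cell, B cell, alveolar epithelial, cardiomyocyte and red blood cell markers 0 passed in any of the 9 comparisons. The shares of all genes in these comparisons were 0.0% to 1.26% higher and 0.00592% to 1.18% lower.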

How the data were processed

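RNA from lung pieces was sequenced after poly-A selection with a strand-keeping kit, per the labels' protocols. The submitters' processing notes name bcl2fastq 2.19.1.403, CASAVA, STAR 2.5.1b, featureCounts 1.5.1 and StringTie 1.3.3 and the builds GRCh37 and GRCm38; the annotation release and strand setting: not given in the sources used here. The deposited table holds raw counts per gene. The deposited abundance tables hold TPM, used as an alternative, and FPKM and coverage as the authors wrote them, both unused.

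Counts of all 36 libraries were fitted in R 4.3.3 with edgeR 4.0.16 (filterByExpr, TMM scaling, quasi-likelihood test, 12 group means), with Benjamini-Hochberg adjustment over 16903 genes and a threshold of 0.05. Comparisons of the 3 materials with D on a day share its D libraries. P-values measure the spread between these libraries only. The script was tested on simulated counts. Alternatives were DESeq2 1.42.0, edgeR with relative log expression (RLE) size factors in place of TMM, and no filter. Others were fits of only the groups compared, limma 3.58.1 on log2(TPM + 1), a replicate block and leaving out each library. Thinning of the deepest library and CPM per kilobase of merged exons were added after seeing the data. The 4 genes, the gene lists and the tests were chosen with earlier results of these data known. Named were the 4 genes, the clock list, the 5 most alike and 3 most opposed genes of each, and up to 3 called genes of each other list. Same-numbered replicates did not deviate together: in 0 of 21 comparisons were all 3 correlations over 0.1 (range -0.58 to 0.46). Of the clock genes counted, 1 is not reported here by name.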

Additional observations from a re-analysis of the deposited data

Results flagged for a closer look

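In 3 of the 36 comparisons of an effect between days (4 genes, 9 comparisons), the difference passed the threshold of the fit over all genes; the genes were chosen with earlier results known, so this is a description. For Nr1d1 the log2 effect of L against D was larger at day 28 than at day 1 by 2.70 ± 0.52 (SE). For Nr1d2 the effect of L was larger at day 28 than at day 1 by 1.77 ± 0.29, and that of S was larger at day 28 than at day 7 by 1.64 ± 0.29. In all 3 the D libraries of day 28, the lowest in both genes, enter the difference. The hour of collection on each day is not given in the sources used here, and hour, age and day cannot be told apart in these differences.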

How the results depend on the processing

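Of the 19 passes of the 4 genes against D, 19 held with DESeq2, with RLE size factors in edgeR, with no filter and with the replicate block. With limma on log2(TPM + 1) 18 held, and in fits of only the groups compared 11. The replicate block changed no call of the 4 genes in these comparisons. Replicates share only a number, and the block left 7 of 15 other clock genes in US at day 7 and 9 in L at day 28. The 4 passes of D over time and the 5 between materials held under each of these settings. With limma on log2(TPM + 1), Bhlhe41 in S at day 28 was at 0.83 and lost its call, and values moved by more than the replicate spread to 3.64 (Nr1d1) and 2.33 (Nr1d2) in L at day 28, 1.10 (Nr1d2, L against S, day 7), 0.24 (Bhlhe41, S against US, day 28), -0.25 and -0.10 (Bhlhe40 and Bhlhe41, D day 7 against day 1) and -0.0226 (Bhlhe41, D day 28 against day 7). The count of the 4 genes was 1 with no filter and with DESeq2 in US at days 1 and 28 and in L against S at day 28, and with DESeq2 2 in S against US at day 7 and 1 at day 28. In fits of only the groups compared it was 0 in L at day 1, 0 in US at day 7 and 1 in L at day 7. Other clock genes past the threshold numbered 5 in L at day 1 with no filter; 6, 5 and 4 in S day 1, L day 1 and S day 28 with DESeq2; 7, 0, 5 and 5 in S day 1, L day 1, US day 7 and S day 28 with only the groups compared; and 0, 0, 1 and 6 in S day 1, L day 1, S day 28 and L day 28 with limma. The cause was not tested. Leaving out 1 library, Nr1d1 ranged from -0.12 to 0.93 in S against D and from -0.18 to 0.87 in S against US at day 1. Counts of the 4 genes then ranged from 0 to 2 in L and S at day 1, 0 to 1 in US at day 1, 0 to 0 in S and 1 to 3 in L at day 7, 0 to 1 in L against S at day 7 and 0 to 3 at day 28. Counts of other clock genes ranged from 0 to 5 in S, 0 to 1 in L and 0 to 1 in US at day 1 and from 1 to 2 in S at day 28. At day 7 they ranged from 6 to 10 in US and from 5 to 6 in L, against 8 and 7 with all libraries. In L at day 28 they ranged from 7 to 8, against 10 with all libraries. In deposited TPM, Nr1d1 was most opposed to Npas2 (-0.82) and Bhlhe41 most like Bhlhe40 (0.79). Bhlhe41 rests on as few as 146 counts in a library. The spread between libraries was widest for Nr1d1, with an SE of 0.35 to 0.40 against D, compared with 0.20 for Bhlhe41.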
